A study of Mus musculus with 15 samples.

Results

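The inhibitory checkpoint genes examined here were 9 genes named by symbol, made up of the receptors Pdcd1, Ctla4, Lag3, Havcr2, Btla, Tigit and Cd160 and the ligands Cd274 and Pdcd1lg2, among 18169 named genes tested. Probes were assigned to them by matching the transcript identifier in the files to a gene table. In total, 8 of the 9 genes were matched, by 9 probes, of which 2 belonged to Havcr2. Tigit had no matched probe and was not analysed here. The 15 single-colour mouse arrays were divided into 5 groups of 3. Cardiac allografts came from C57BL/10 (B10, H-2b) donors, were placed in CBA (H-2k) recipients in the abdomen, and were taken at post-operative day (POD) 5. Hepatic allografts went orthotopically from B10.BR (H-2k) donors to B10.D2 (H-2d) recipients, and were taken at POD5 or POD8. All mice were male. The model is described as one without immunosuppression. Heart controls and liver controls are called normal tissue in the labels and isografts elsewhere in the study, and their strain was not given in the sources used here. A single liver control group served both hepatic time points. Nothing in the labels states that each array held the tissue of a separate animal, so P-values measure the spread between these samples, which may be technical.

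Inhibitory checkpoints restrain T cells after activation. PD-1, the product of Pdcd1, binds PD-L1 (Cd274) and PD-L2 (Pdcd1lg2), and recruits phosphatases that dampen signalling from the T cell receptor and CD28. CTLA-4 takes the ligands CD80 and CD86 away from CD28, LAG-3 binds MHC class II, TIM-3 (Havcr2) is found on T cells and on myeloid cells, and BTLA and CD160 both bind HVEM (Tnfrsf14). Interferon gamma is a known inducer of Cd274, and mice lacking PD-L1 signals reject grafts faster in several transplant models.

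Promoter sequences are shown because Cd274 and Pdcd1lg2 lie side by side on chromosome 19 and were both higher in every allograft group, and because 1 window of Cd160 held the searched motif. Windows of 300 bases, from 250 before to 50 after a transcript start, were taken from the RefSeq table of the build GRCm38.p6, in which 8 of the 9 genes had an entry. Capitals mark a match to TTCNNNGAA, the form of a gamma-activated site, which was found on either strand in 8.3% of 32851 promoter windows of the same length. The core of an interferon-stimulated response element, searched as GAAA, any 2 bases and GAAA again on either strand, was found in 3.44% of them, and it was not found in the windows of these genes. The sequences run 5′ to 3′ on the strand of the gene, at chr19:29367188-29367487 (+) for Cd274, chr19:29410669-29410968 (+) for Pdcd1lg2 and chr3:96814472-96814771 (-) for Cd160.
Cd274: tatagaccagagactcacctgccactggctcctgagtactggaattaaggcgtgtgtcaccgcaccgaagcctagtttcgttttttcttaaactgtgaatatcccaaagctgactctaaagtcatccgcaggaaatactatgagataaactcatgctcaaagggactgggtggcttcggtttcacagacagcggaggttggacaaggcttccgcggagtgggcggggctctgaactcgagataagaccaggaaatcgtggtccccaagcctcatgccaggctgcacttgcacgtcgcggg
Pdcd1lg2: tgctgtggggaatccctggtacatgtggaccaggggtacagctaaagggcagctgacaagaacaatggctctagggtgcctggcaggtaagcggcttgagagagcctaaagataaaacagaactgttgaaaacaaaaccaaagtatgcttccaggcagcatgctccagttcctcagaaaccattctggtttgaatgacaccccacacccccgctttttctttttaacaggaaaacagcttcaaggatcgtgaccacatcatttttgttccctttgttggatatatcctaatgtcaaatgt
Cd160: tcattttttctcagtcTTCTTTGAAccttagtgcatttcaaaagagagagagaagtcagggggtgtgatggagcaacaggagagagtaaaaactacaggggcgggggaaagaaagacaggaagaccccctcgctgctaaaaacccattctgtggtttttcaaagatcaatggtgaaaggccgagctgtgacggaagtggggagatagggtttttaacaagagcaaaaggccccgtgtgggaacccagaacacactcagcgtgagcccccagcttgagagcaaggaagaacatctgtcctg
The match in Cd160 began 234 bases before the start, and the second Cd160 window held none. Neither motif was in the windows of Cd274, Pdcd1lg2, Pdcd1, Ctla4, Havcr2, Btla or Tigit, which says only that these letters are not in these windows.

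Values below are log2 of the processed signal after quantile normalization of the 15 arrays, so a difference of 1 is a doubling. The probe of a gene is compared only with itself between groups, since probes differ in brightness for reasons other than abundance. The 75th percentile of the signal before normalization was lowest on the liver controls, at 92.1 to 226, and highest on the heart controls, at 1021 to 1247. Within a group, arrays correlated at 0.956 to 0.994 over probes. Hepatocyte genes such as Alb were bright in liver and near the floor in heart, and cardiomyocyte genes such as Myh6 the reverse. All 8 measured genes were well above background on every allograft array, against 5 in the heart controls and 1, Cd274, in the liver controls. In whole tissue, more cells of a type and more RNA per cell cannot be told apart.

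Of the 8 measured genes, 7 were higher in cardiac allografts than in heart controls, and all 8 were higher in hepatic allografts than in liver controls at POD5 and at POD8, at an adjusted P-value under 0.05 in limma. Over all named genes tested, 16.5% were called higher in heart, 10.9% in liver at POD5 and 9.05% in liver at POD8. The allograft arrays lay wholly above the controls for 7, 8 and 8 of the checkpoint genes, beside 30%, 16.4% and 15.6% of all named genes. The median log2 difference of the 8 genes was 3.67 in heart, 3.77 in liver at POD5 and 3.62 at POD8, beside medians of -0.01, -0.05 and -0.09 over all named genes. With genes not well above background in controls set at their lower bounds, described below, the medians of the 8 genes were 2.91 at POD5 and 3.01 at POD8. The exception was Havcr2 in heart. With Bonferroni adjustment, the threshold of the study's methods, 5, 7 and 6 genes were called higher, beside 1.88%, 1.35% and 1.17% of all named genes. The calls lost in the limma fit were those of Pdcd1 in all 3 comparisons (Bonferroni-adjusted P = 0.972, 0.0979 and 0.117) and those of Btla in heart and at POD8 (1.0 and 0.113). The study itself reported Pdcd1 and Pdcd1lg2 as significant in all 3 comparisons at this threshold, by its own standardized fold change method. It also found both higher by quantitative RT-PCR.

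**Figure D1:**
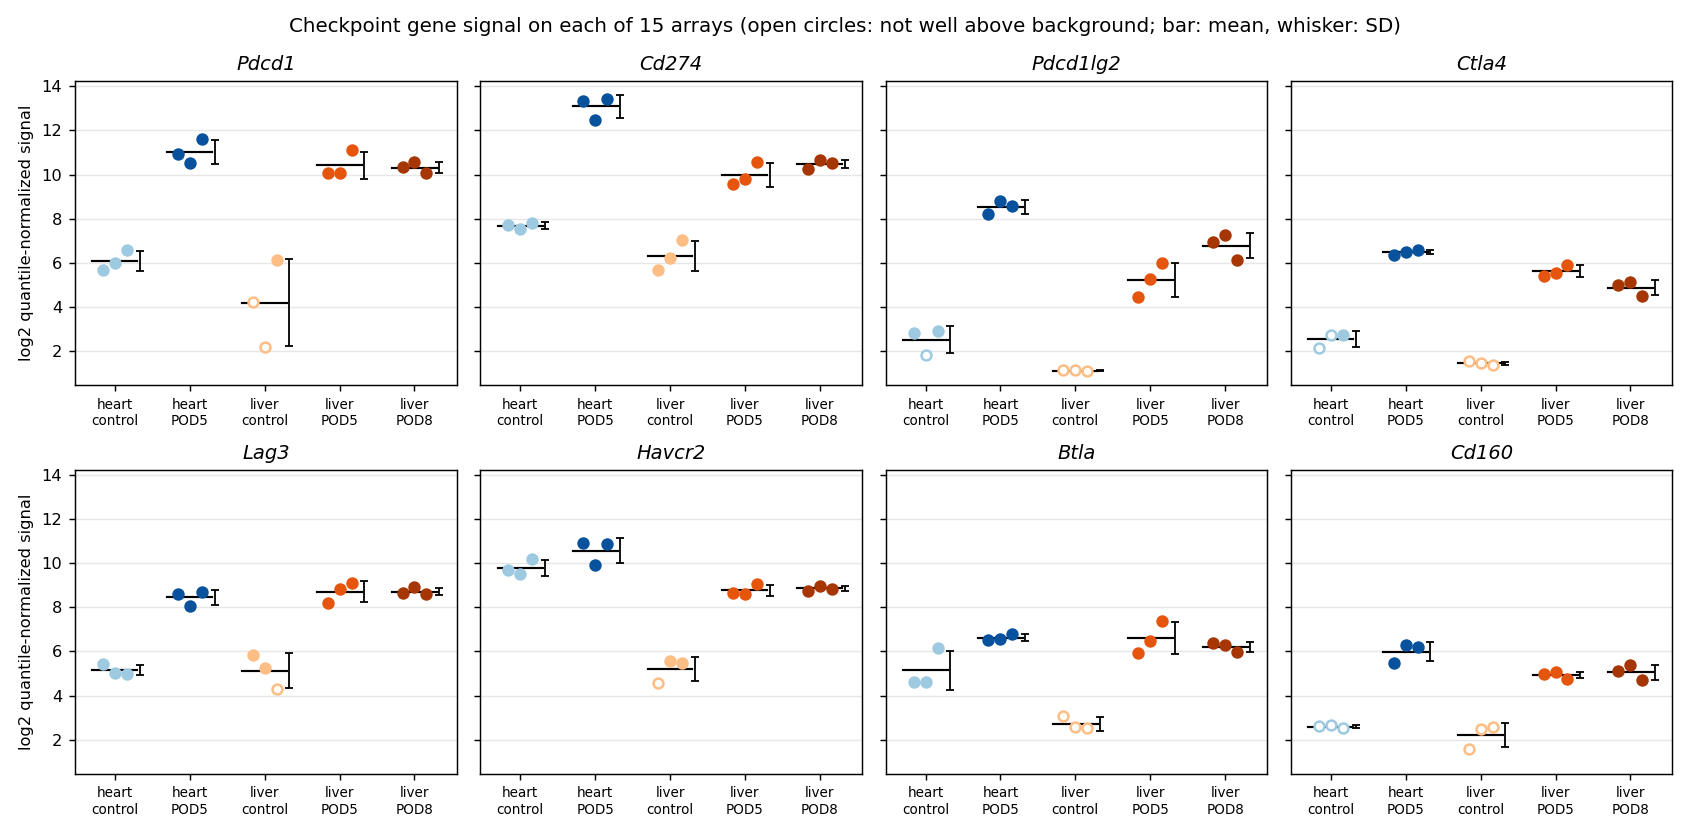
Log2 quantile-normalized signal (vertical axis) of the 8 measured checkpoint genes on each of the 15 arrays, by group. Filled circles are arrays on which the probe was well above background and open circles are arrays on which it was not, with the mean as a bar and the SD as a whisker beside it. The Cd274 signal on heart allografts, at 12.49 to 13.44, lies above that on all other arrays, and the Havcr2 signal on heart controls, at 9.50 to 10.20, reaches into the range of the heart allografts.

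Pdcd1 encodes PD-1, the receptor that marks T cells under repeated stimulation. On heart allografts it read 10.95, 10.54 and 11.61, and on heart controls 5.66, 6.0 and 6.56. The groups were far apart, with a log2 difference of 4.96 ± 0.74 (SE; 31.1-fold, adjusted P = 0.000439). On hepatic allografts it read 10.07, 10.08 and 11.12 at POD5 and 10.32, 10.56 and 10.06 at POD8, and on liver controls 4.22, 2.18 and 6.13. Only the third liver control was well above background, and it was the highest of a widely scattered group. The log2 difference was 6.24 ± 0.74 at POD5 (adjusted P = 0.000211) and 6.13 ± 0.74 at POD8 (adjusted P = 0.000282). These 2 values moved with single liver controls, to 5.23 and 5.12 without replicate 2 and to 7.24 and 7.13 without replicate 3. The mean of Pdcd1 was highest in heart allografts, at 11.03 ± 0.54 (SD, n = 3), but overlapped those of hepatic allografts at POD5, at 10.42 ± 0.61.

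Cd274 encodes PD-L1, a ligand made by many haematopoietic and tissue cells. It read 13.34, 12.49 and 13.44 on heart allografts against 7.73, 7.53 and 7.80 on heart controls. All 6 arrays had signal well above background, and the allografts were 42.3-fold brighter (log2 5.40 ± 0.36, adjusted P = 1.03e-06). In liver it read 5.67, 6.21 and 7.02 on controls, 9.57, 9.80 and 10.57 at POD5 and 10.26, 10.65 and 10.53 at POD8. The allografts lay wholly above the controls at both times, by 3.68 ± 0.36 at POD5 (12.8-fold, adjusted P = 4.95e-05) and 4.18 ± 0.36 at POD8 (18.1-fold, adjusted P = 2.07e-05). Heart controls also lay above liver controls without overlap, and heart allografts lay above hepatic allografts of either time.

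Pdcd1lg2 encodes PD-L2, a ligand made mainly by dendritic cells and macrophages. It read 8.19, 8.79 and 8.58 on heart allografts, and 2.80, 1.84 and 2.92 on heart controls, of which 2 were well above background. The log2 difference in heart was 6.01 ± 0.40 (64.2-fold, adjusted P = 1.22e-06). On hepatic allografts it read 4.44, 5.25 and 6.0 at POD5 and 6.93, 7.26 and 6.13 at POD8, and on liver controls 1.12, 1.12 and 1.08. No liver control was well above background, so the change in liver has only a lower bound, taken on each control array from the lowest signal well above background, or from the probe's own signal where that was higher. Pdcd1lg2 was at least 1.86-fold higher at POD5 (adjusted P = 5.33e-05) and at least 5.43-fold higher at POD8 (adjusted P = 5.16e-06). Such bounds hold for the processed signal. With normexp, a background correction whose offset compresses dim signal, the Pdcd1lg2 difference was 0.83 at POD5 and 1.64 at POD8 on the log2 scale, still called but below both bounds. The 5 groups did not overlap with their neighbours, in the order heart allografts, liver POD8, liver POD5, heart controls and liver controls. The order of the 2 control groups rests on signals near the floor and was not determined.

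Ctla4 encodes CTLA-4, which appears on activated and regulatory T cells. Heart allografts read 6.37, 6.51 and 6.58, and heart controls 2.13, 2.74 and 2.74, of which 1 was well above background. The allograft arrays were close together and lay above the controls by 3.95 ± 0.21 (15.5-fold, adjusted P = 2.25e-07). Hepatic allografts read 5.41, 5.53 and 5.92 at POD5 and 4.99, 5.13 and 4.48 at POD8, and liver controls 1.53, 1.44 and 1.38, none well above background. Ctla4 was at least 2.44-fold higher at POD5 (adjusted P = 1.05e-06) and at least 1.45-fold higher at POD8 (adjusted P = 1.84e-06). The order of its groups differed from that of Pdcd1lg2, with POD5 above POD8 in liver.

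Lag3 encodes a CD4-related receptor for MHC class II on activated T and NK cells. It read 8.61, 8.07 and 8.71 on heart allografts and 5.42, 5.04 and 4.99 on heart controls. The difference was 3.31 ± 0.35 (9.94-fold, adjusted P = 3.94e-05). In liver it read 5.86, 5.24 and 4.29 on controls, of which 2 were well above background, 8.20, 8.85 and 9.09 at POD5 and 8.63, 8.92 and 8.60 at POD8. Both hepatic differences were 3.59 ± 0.35, with adjusted P-values of 5.54e-05 at POD5 and 6.02e-05 at POD8. For Lag3, as for Pdcd1, the 3 allograft groups overlapped each other and so did the 2 control groups.

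Havcr2 encodes TIM-3, which is carried by T cells and by macrophages and dendritic cells. Heart allografts read 10.92, 9.91 and 10.86 and heart controls 9.70, 9.50 and 10.20. The heart groups overlapped and Havcr2 was not called, with a log2 difference of 0.77 ± 0.32 (95% interval 0.08 to 1.46, adjusted P = 0.0909). It was called only when the second heart allograft was left out, at 1.09 (adjusted P = 0.0184). In liver, controls read 4.58, 5.56 and 5.47, of which 2 were well above background, and allografts 8.67, 8.59 and 9.06 at POD5 and 8.76, 8.98 and 8.84 at POD8. The hepatic difference was 3.57 ± 0.32 at POD5 (11.9-fold, adjusted P = 2.48e-05) and 3.66 ± 0.32 at POD8 (12.6-fold, adjusted P = 2.26e-05). Heart controls were brighter than hepatic allografts at either time. A second, dimmer Havcr2 probe differed by 0.52 ± 0.18 in heart (adjusted P = 0.052), and was not well above background on any liver array. Summed over 7 macrophage genes, the signal ranged from 21706 to 32385 on heart controls and 20984 to 27009 on heart allografts, and on liver from 16580 to 42969 in controls, 61800 to 81999 in POD5 grafts and 83203 to 106270 in POD8 grafts. The list did not move as one, with 1 of the 7 genes called higher (Timd4) and 2 lower (Mrc1 and Clec4f) in heart, 0 called in liver at POD5 and 2 higher (Adgre1 and Csf1r) at POD8. The part of macrophages in the Havcr2 values was not tested.

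Btla encodes a receptor for HVEM on B and T cells. It read 6.53, 6.55 and 6.80 on heart allografts and 4.62, 4.62 and 6.17 on heart controls. The third control was much closer to the allografts than the other two. The summed signal of 4 B cell genes was also highest on that control, at 1640 against 545 and 584 on the others, and its part in the Btla value was not tested. The difference of 1.49 ± 0.42 (2.81-fold, adjusted P = 0.0192) was lost in 10 of 19 alternatives, among them the fit by phase (adjusted P = 0.0624) and the fits without control replicate 1 or 2 (0.0813 for each) or without allograft replicate 3 (0.0617). Without control replicate 3 it was 1.99. On hepatic allografts it read 5.94, 6.46 and 7.38 at POD5 and 6.39, 6.31 and 5.96 at POD8, and on liver controls 3.09, 2.55 and 2.53, none well above background. Btla was at least 4.80-fold higher at POD5 (adjusted P = 0.000113) and at least 3.70-fold higher at POD8 (adjusted P = 0.000277). Among the B cell genes, Cd79a was at 0.67 in heart and Cd79b and Ms4a1 at -0.95 and -0.96, none of these 3 called by limma. In liver 0 were called in either direction, with 0 at an unadjusted P-value under 0.05.

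Cd160 encodes a further HVEM receptor, found on NK cells and cytotoxic T cells. It read 5.49, 6.28 and 6.18 on heart allografts, and 2.61, 2.67 and 2.51 on heart controls, none well above background. The log2 difference of the measured means was 3.39 ± 0.28 (adjusted P = 5.89e-06), and 0.79 with normexp, so its size is uncertain. In liver it read 1.58, 2.46 and 2.59 on controls, also not well above background, 4.97, 5.07 and 4.77 at POD5 and 5.12, 5.38 and 4.70 at POD8. It was at least 1.52-fold higher at POD5 (adjusted P = 7.65e-05) and at least 1.66-fold higher at POD8 (adjusted P = 5.98e-05). Of 5 NK cell genes, 5 were called higher in heart, 3 in liver at POD5 and 5 at POD8, beside the shares of all named genes given above.

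The 3 heart allografts shared 1 slide and the 3 heart controls another, which cannot be told apart from the effect of the graft. The hepatic POD5 arrays likewise shared no slide with liver controls or with POD8 arrays, so slide cannot be told apart from group there either. Hepatic POD5 replicate 3 was on the slide of the heart allografts and was the highest POD5 array for 7 of the 8 genes, and without it all 8 were still called at POD5. In liver, 2 allografts at POD8 and 2 controls shared a slide. Within that slide the 8 genes were higher by 2.92 to 7.27 on the log2 scale, with adjusted P-values of 0.0585 to 0.0873 and 0 of them called. The share of all named genes called within that slide was not counted, so the 0 is not a result about these genes.

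**Figure D2:**
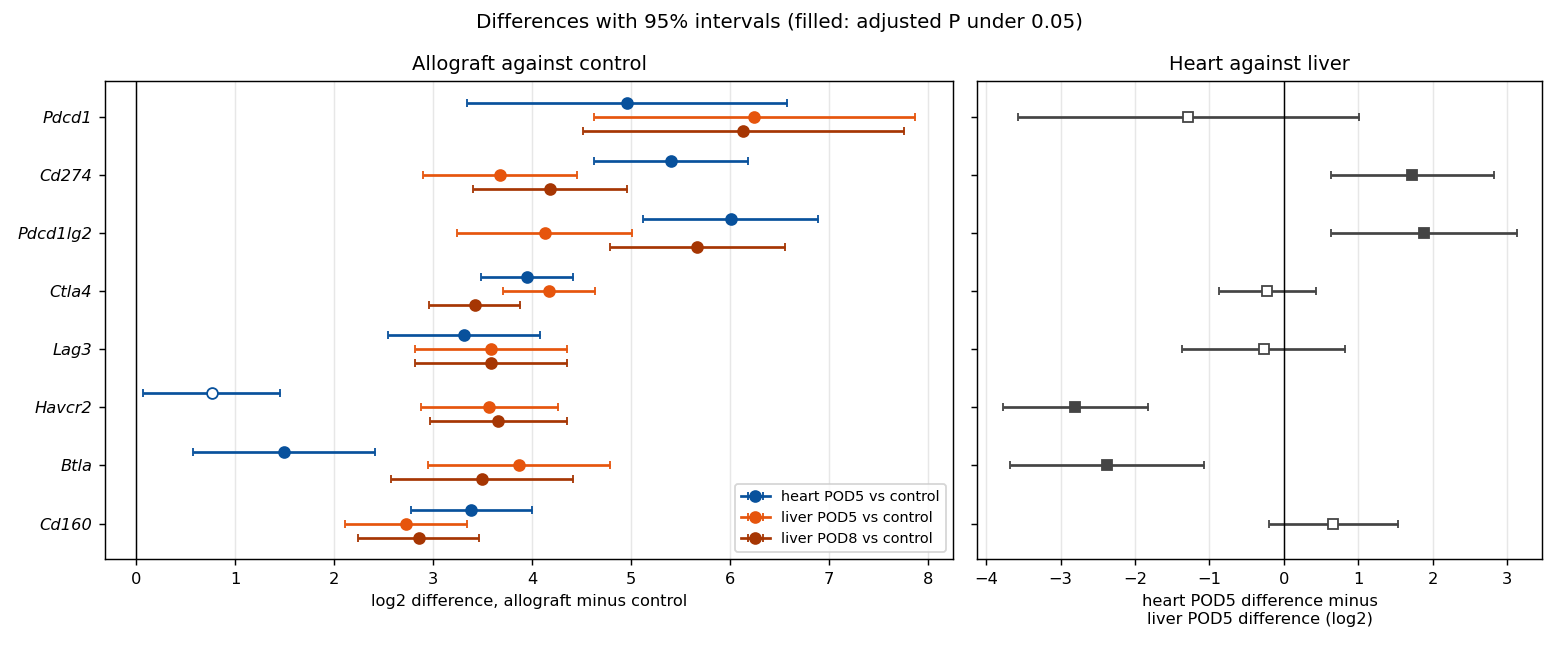
Log2 differences between allografts and controls (left) and between the heart and liver differences at POD5 (right) for the 8 genes, with 95% intervals from limma. Filled symbols have an adjusted P-value under 0.05. Havcr2 in heart is the open symbol on the left, at 0.77, and in the right panel Cd274 and Pdcd1lg2 lie to the right of 0 while Havcr2 and Btla lie to the left, Pdcd1lg2 and Btla with liver controls not well above background.

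The cardiac and hepatic differences at POD5 were set against each other by an interaction term. It was called for 4 of the 8 genes, 2 in each direction, beside 22.4% of all named genes called in either direction. Cd274 rose more in heart, by 1.73 ± 0.50 (adjusted P = 0.0352). Havcr2 rose more in liver, with a value of -2.80 ± 0.45 (adjusted P = 0.00216). The value of Btla was -2.38 ± 0.60 (adjusted P = 0.0183). The value of Pdcd1lg2 was 1.88 ± 0.57 (adjusted P = 0.0409), but its hepatic rise has only a lower bound, so in which organ it rose more was not determined. The Havcr2 value was -0.95 ± 0.26 on the second probe (adjusted P = 0.0252), which was not well above background on any liver array. For Pdcd1, Ctla4, Lag3 and Cd160 the values were -1.29, -0.22, -0.27 and 0.66, none called, with 95% intervals of -3.58 to 1.0, -0.87 to 0.43, -1.36 to 0.82 and -0.21 to 1.53. With 75th percentile scaling, Ctla4 turned to 1.25 (adjusted P = 0.0156) and Cd160 was at 1.63 (adjusted P = 0.00218), both called, while the median of all genes moved to 0.33. The call for Cd274 and that for Pdcd1lg2 were each lost in 12 of 21 alternatives, including the slide as a random block (adjusted P = 0.091 and 0.145). Leaving out 1 array lost the call of Cd274 in 9 of 12 cases, with values of 1.35 to 2.02, and that of Pdcd1lg2 in 9 of 12, with values of 1.52 to 2.22. It was kept for Cd274 without heart allograft replicate 2, hepatic POD5 replicate 3 or liver control replicate 1, and for Pdcd1lg2 without heart allograft replicate 1, heart control replicate 3 or hepatic POD5 replicate 3. The Havcr2 call was kept in 20 of the 21 and that of Btla in 19. Liver controls of Pdcd1lg2, Btla, Ctla4 and Cd160, and heart controls of Cd160, were not well above background, so the interaction values and intervals of these 4 genes rest on signals near the floor. Of the 3 liver controls, 1 was well above background for Pdcd1, and 2 were for Lag3 and for Havcr2. Of the 3 heart controls, 1 was for Ctla4 and 2 were for Pdcd1lg2. Dim signal limits these values too, that of Pdcd1 most among the first 3 genes. For Btla the lower bound in liver, 4.80-fold, exceeded the 2.81-fold difference in heart. The 95% interval in heart, 0.57 to 2.41 on the log2 scale, reached above that bound, and with normexp the interaction was not called. The organ in which Btla rose more was therefore not determined. Donor and recipient strains also differed between the organs, and strain and organ cannot be told apart.

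Between POD5 and POD8 in liver, 0 of the 8 genes were called by limma, with 2 at an unadjusted P-value under 0.05, and 0.044% of all named genes were called. The POD8 arrays lay wholly above the POD5 arrays for 1 of the 8 genes, beside 8.4% of all named genes. The 2 with a low unadjusted P-value were Pdcd1lg2, higher at POD8 by 1.54 ± 0.40 (adjusted P = 0.26), and Ctla4, which was 4.87 ± 0.34 at POD8 against 5.62 ± 0.26 at POD5 (log2 difference -0.75 ± 0.21, adjusted P = 0.29). The arrays of the 2 times did not overlap for either. For the other 6 genes the differences ran from -0.37 to 0.50 and the arrays overlapped. The 95% intervals were -0.28 to 1.28 for Cd274 and -1.73 to 1.51 for Pdcd1.

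T cell genes rose in the same arrays. The mean of 13 T cell markers was higher by 3.97 in heart, 3.70 in liver at POD5 and 3.23 in liver at POD8, and lower by 0.47 at POD8 than at POD5. All 13 markers were called higher in heart and 10 in each liver comparison, beside the shares of all named genes given above. Some markers moved little in liver. The means on controls, at POD5 and at POD8 were 7.25, 7.99 and 7.96 for Cd3e. They were 10.04, 9.94 and 10.07 for Zap70, and 5.58, 5.43 and 5.18 for Cd4. Their summed signal was 647 to 944 on heart controls against 14952 to 22938 on heart allografts, and on liver 1633 to 2115 in controls, 9799 to 16377 in POD5 grafts and 8702 to 10883 in POD8 grafts. Between 7 and 9 of the 13 were well above background on a liver control, so values against liver controls are limited by dim signal. The share of T cell number in the checkpoint values was not tested.

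To show which genes changed unequally to the T cell markers, the mean of the markers was subtracted on each array. Relative to the markers, Cd274 was higher in heart allografts than in heart controls by 1.43, Pdcd1lg2 by 2.03 and Pdcd1 by 0.98, with no overlap between the groups. Ctla4 differed by -0.02 and its groups overlapped. Lag3 and Cd160 differed by -0.66 and -0.59, Btla by -2.48 and Havcr2 by -3.21. In liver at POD5 against controls, Cd274 was at -0.02 and Pdcd1lg2 at 0.42, both with overlap, and Pdcd1 at 2.54 without. At POD8 against controls, Cd274, Pdcd1lg2, Pdcd1 and Havcr2 were at 0.95, 2.44, 2.90 and 0.43, without overlap. Lag3, Btla and Ctla4 overlapped in both, and Cd160 was lower at POD5, by -0.98, without overlap. No liver control was well above background for Cd160, Pdcd1lg2, Btla or Ctla4. Their relative values against liver controls therefore rest on signals near the floor. With 75th percentile scaling, Cd274, Pdcd1lg2 and Ctla4 turned sign at POD5, to 0.11, -0.43 and -0.37, all with overlap. At POD8 Ctla4 went from 0.19 to -0.72, without overlap. In liver at POD8 against POD5, Pdcd1lg2 was higher relative to the markers by 2.01 and Cd274 by 0.97, and Lag3, Havcr2 and Cd160 by 0.47, 0.56 and 0.60. Ctla4 was at -0.28. The arrays of the 2 times did not overlap for these 6 genes. The relative Pdcd1lg2 value was -3.87 ± 0.47 (SD, n = 3) at POD5 and -1.86 ± 0.42 at POD8. An exact two-sided permutation test of 3 arrays against 3 cannot give a P-value below 0.10, which it gave for every pair of groups without overlap, and none of the 32 such tests could pass. With Cd3e as the sole reference, the POD8 difference was 1.57 for Pdcd1lg2 and 0.52 for Cd274, and both overlapped between the times. In heart, Ctla4, Lag3 and Cd160 turned to 1.26, 0.62 and 0.70 with that reference, and the direction of the other 5 genes was kept.

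**Figure D3:**
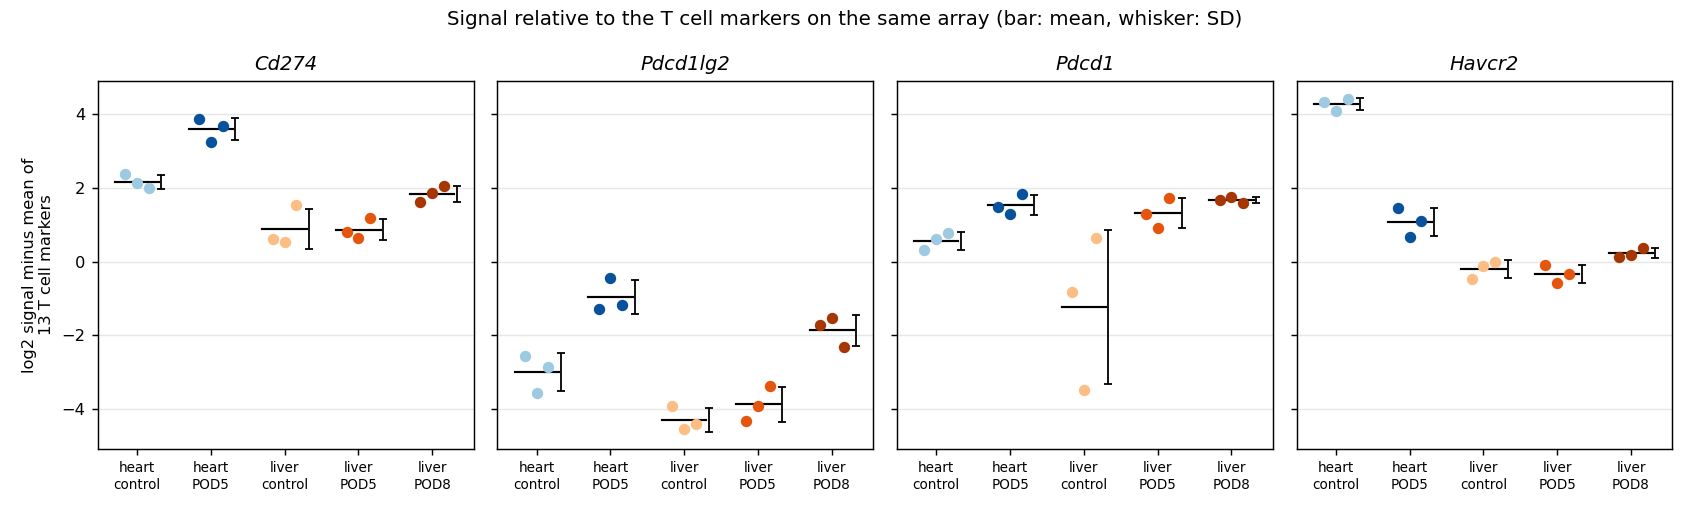
Log2 signal of Cd274, Pdcd1lg2, Pdcd1 and Havcr2 minus the mean of 13 T cell markers on the same array (vertical axis), by group, with the mean as a bar and the SD as a whisker. Only differences between groups within a panel can be read, since probes differ in brightness. Both ligands sit higher in heart allografts than in heart controls, by 1.43 and 2.03, and higher in liver at POD8 than at POD5, by 0.97 and 2.01, while in liver at POD5 they overlap the controls. Havcr2 is 3.21 lower in heart allografts than in heart controls.

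Partners of the receptors did not move as one. Of 13 ligand and partner genes, 12 were measured, of which 2 were called higher and 4 lower in heart, 4 higher and 2 lower in liver at POD5, and 3 higher and 0 lower at POD8, beside 19.2%, 7.4% and 5.39% of all named genes called lower and the shares called higher given above. The count of higher genes ran from 0 to 2 in heart and from 0 to 4 in liver over the alternatives. Their median log2 difference was 0.19, 0.12 and -0.0003 in these comparisons. Cd80 and Cd86 encode the ligands of CTLA-4. Cd86 was higher by 1.12 in heart (adjusted P = 0.0199), 1.62 in liver at POD5 and 2.45 at POD8, and Cd80 by 1.41 and 2.25 in liver, with 0.47 in heart not called. Tnfrsf14, the HVEM gene, was higher by 2.58 in heart and 1.39 in liver at POD5, and at POD8 its value of 1.28 was not called. Lgals9, whose product binds TIM-3, was called in none of the 3 comparisons, at 0.62, 0.18 and 0.57. Lower in heart were Clec4g, Rgmb, Nectin3 and Ceacam1, by -2.06, -1.64, -1.56 and -1.27. Lgals3, which encodes galectin-3, was higher in liver by 2.83 and 2.59. Pvr and Nectin2, for ligands of TIGIT, were at 0.30 and 0.08 in heart, neither called.

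Of 15 further inhibitory receptor or ligand genes, 14 were measured, and 7 were called higher in heart and 12 in liver at each time, with 0 called lower. Beside this list and those that follow, 16.5%, 10.9% and 9.05% of all named genes were called higher in the 3 comparisons. The median log2 difference of the 14 genes was 1.42 in heart, 2.31 in liver at POD5 and 2.78 at POD8. In heart the called genes with the largest differences were Cd5 (4.99), Klrc1, which encodes NKG2A (4.68), Cd96 (3.17) and Klrg1 (2.70). In liver at POD5 they were Cd96 (5.53), Klrc1 (4.71), Cd5 (3.59) and Cd244a (3.11), and at POD8 Cd200r1 (3.32) took the place of Cd5 (3.04).

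Of 16 genes for inhibitory signalling in lymphocytes, 15 were measured. In heart 11 were called higher and 2 lower, in liver 9 higher at POD5 and 7 at POD8, with 0 lower. Socs1, a suppressor of cytokine signalling, was higher by 5.81, 4.05 and 4.33 in the 3 comparisons. Ptpn22, a phosphatase of T cell receptor signalling, was higher by 2.52, 3.96 and 3.54. The 2 phosphatase genes that PD-1 and BTLA are known to recruit differed from each other, with Ptpn6 (SHP-1) higher by 2.55, 1.19 and 1.42 and Ptpn11 (SHP-2) at -0.95, called lower, in heart and at 0.09 and 0.24, not called, in liver.

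Of 18 transcription factor genes of T cell activation and exhaustion, 16 were measured, with 9 called higher and 1 lower in heart, 9 higher in liver at POD5 and 7 at POD8. Tbx21 (4.72, 4.05 and 3.20), Eomes (3.30, 2.95 and 1.73), Irf4 (3.26, 4.12 and 3.34) and Batf (1.95, 3.16 and 3.17) were higher in all 3 comparisons. Tox was called in heart (2.43) and in liver at POD5 (1.82), and at POD8 it was at 1.37 (adjusted P = 0.0634). Of 20 interferon gamma response genes, 19 were measured and 16 were called higher in each comparison, with median log2 differences of 4.01, 2.69 and 2.78. Ifng itself was higher by 10.55, 5.79 and 6.19, and Cxcl9 by 7.13, 5.92 and 5.31. Nlrc5 was higher in heart by 3.36 and was not called in liver, at 0.14 and 0.59.

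**Figure D4:**
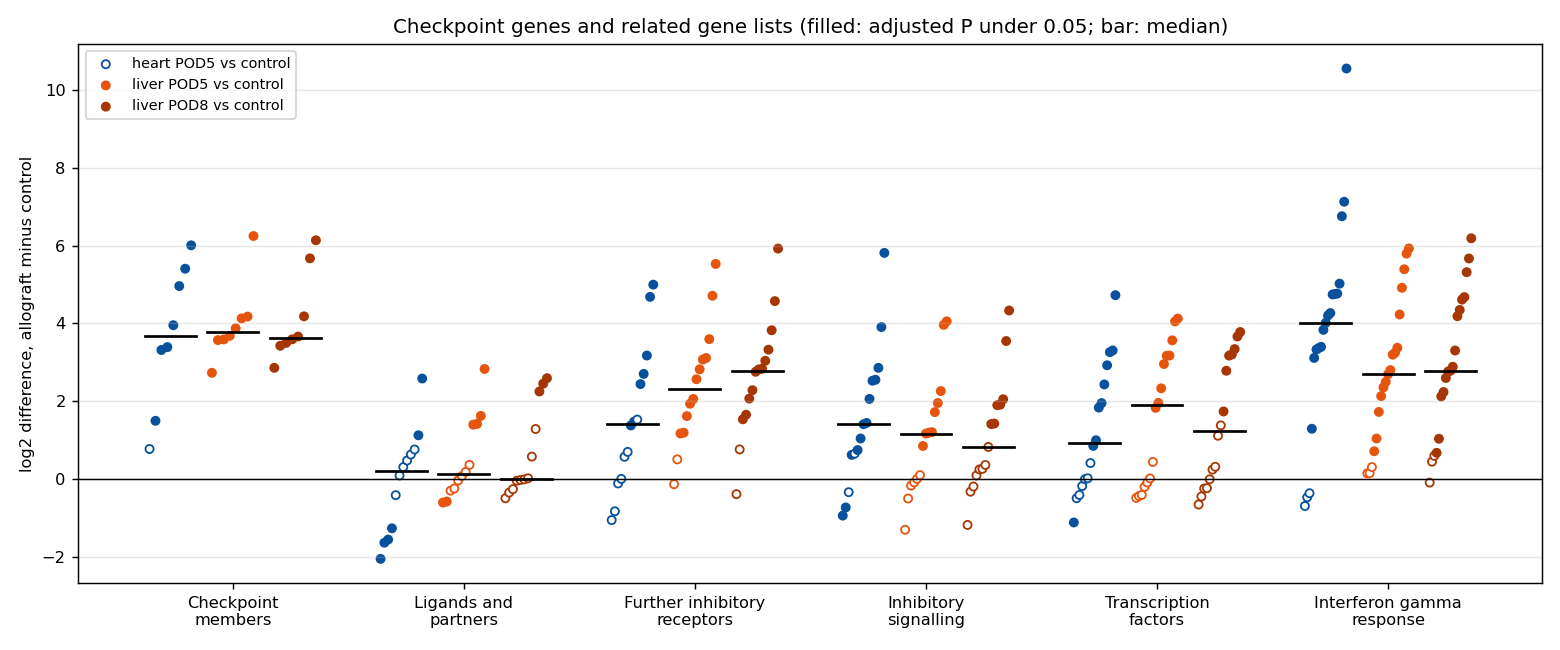
Log2 differences between allografts and controls (vertical axis) of the 8 checkpoint genes and of 5 related gene lists, 1 point a gene, in 3 comparisons. Filled points have an adjusted P-value under 0.05 and bars are medians. The ligand and partner list lies on both sides of 0, with medians of 0.19, 0.12 and -0.0003, and the interferon gamma list has medians of 4.01, 2.69 and 2.78.

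The genes most like each checkpoint gene were ranked by the Pearson correlation of log2 signal over the 15 arrays, among 14428 named genes well above background on at least 6 arrays. These arrays fall in 5 groups, and the values are a description. Pdcd1 was most like Lax1, Acsbg1 and Klrk1, with correlations of 0.984, 0.97 and 0.966. Cd274 was most like Samhd1, Il10ra and Gbp5 (0.988, 0.984 and 0.984), and Pdcd1lg2 most like Ccl5, Irf8 and Socs1 (0.987, 0.983 and 0.983). Ctla4 was most like Cd2, Crtam and Gfi1 (0.99, 0.99 and 0.986), and genes like Lag3 included Tex14 and Tbx21 (0.974 for each). Havcr2 was most like Ccr2, Egr2 and Adcy7 (0.988, 0.986 and 0.985), Btla most like Mgst2, Dusp2 and Nsg2 (0.968, 0.957 and 0.955), and Cd160 most like H2-DMa, Slamf8 and Serpina3f (0.993, 0.986 and 0.984). Between the checkpoint genes themselves, the correlation was highest for Cd274 with Pdcd1lg2, at 0.97, and lowest for Havcr2 with Lag3, at 0.467.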

How the data were processed

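Total RNA of graft or control tissue was labelled with Cy3 and hybridized on 15 arrays. The processed intensity used here was deposited by the authors as made by the scanner software (Feature Extraction 10.5.1.1), which subtracts background within an array, and was on the linear scale, not normalized between arrays. After removal of outlier-marked spots (47 to 113 per array, 0 saturated), log2 values were averaged over the spots of each probe and quantile normalized over the 15 arrays. The number of arrays limits the precision.

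A single fit of 5 groups was made with limma 3.58.1 in R 4.3.3, over 41003 probes, with Benjamini-Hochberg adjustment over all of them. Of 41174 probes, 26690 (64.8%) matched a RefSeq symbol. Each gene was represented by its brightest probe. A probe was well above background on an array when at least 0.5 of its spots were so marked. Named genes were all members with every probe, up to 4 called genes per list and comparison with the largest absolute difference, direct partners, and the 3 most similar genes. Some of the genes of the lists and similar genes are not reported here. The members and lists were chosen with earlier results of these data known. The alternatives, which include the t-test and standardized fold change of the study's methods, are given in the closing section. Only the limma fit, the t-test and the standardized fold change were tested on simulated data, with differences set in the heart allografts.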

Additional observations from a re-analysis of the deposited data

Results flagged for a closer look

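For 4 genes the change in cardiac allografts differed from that in hepatic allografts at POD5, by the interaction term of the limma fit. The heart difference minus the liver difference was 1.73 for Cd274, which rose more in heart, and -2.80 for Havcr2, which rose more in liver. For Btla it was -2.38 and for Pdcd1lg2 1.88. No liver control was well above background for either, and the organ in which each rose more was not determined. With normexp the Btla interaction was not called. The calls of Cd274 and Pdcd1lg2 were each lost in 12 of 21 alternatives. On heart controls Havcr2 was already at 9.50 to 10.20 and Btla at 4.62 to 6.17.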

How the results depend on the processing

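When each array was left out in turn, 6 to 8 checkpoint genes were called higher in heart, 8 in liver at POD5 and 8 at POD8, with 0 called between the times and 2 to 4 for the interaction. The interaction was called for 0 genes with Bonferroni adjustment and for 2 when slides were a random block. The methods' t-test called 0 genes with Bonferroni adjustment in heart, at POD5 and at POD8. With Benjamini-Hochberg adjustment it called 1 at POD5. That t-test kept at least the calls of Pdcd1, Cd274, Pdcd1lg2, Ctla4, Lag3 and Cd160 in heart. At POD8 it kept at least those of Cd274 and Pdcd1lg2. The standardized fold change called 3 in each comparison with controls. Within the shared slide, an alternative chosen after seeing the data with 2 arrays a group, 0 were called at POD8, with no share of all genes to set beside it. Same-numbered arrays were not paired, as 1 of 30 pairs had a correlation over 0.1 (range -0.12 to 0.16). The replicate block left 7, 8 and 8 genes called against controls and 3 for the interaction, losing Pdcd1lg2 (adjusted P = 0.0626). No share of all named genes was counted for the alternatives in this section. Their counts show how the calls depend on the method and are not a result about these genes. With normexp, whose offset of 50 compresses dim signal, the heart differences of Ctla4, Cd160 and Pdcd1lg2 were 1.22, 0.79 and 2.81, and in liver at POD5 those of Cd160, Pdcd1lg2, Ctla4 and Btla were 0.40, 0.83, 0.87 and 1.31, all still called but in liver below the bounds given for the processed signal, and the interaction of Btla was -0.58 (adjusted P = 0.213).

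The following values, not called in the reported fit, turned sign, and the cause was not tested. For the interaction, Ctla4 was 0.31 with normalization within organ, 1.25 with 75th percentile scaling (adjusted P = 0.0156) and 0.35 with normexp, and Pdcd1 was 0.014 with normexp. Lag3 ran from -0.64 to 0.15 over the left-out arrays, positive without liver control 3. That scaling, under which Cd160 was called at 1.63, moved the median of all genes to 0.21 in heart, -0.25 and -0.36 in liver, -0.11 between the times and 0.33 for the interaction. Between POD8 and POD5, Lag3 was -0.059 with normexp and -0.16 with the slide block, and Pdcd1 was 0.11 with the slide block. Over the left-out arrays, Pdcd1 ran from -0.29 to 0.24 (positive without POD5 or POD8 replicate 3), Lag3 from -0.25 to 0.19 (negative without POD5 replicate 1 or POD8 replicate 2), Havcr2 from -0.0023 to 0.23 (negative without POD5 replicate 2), Btla from -0.70 to 0.019 (positive without POD5 replicate 3) and Cd160 from -0.027 to 0.31 (negative without POD8 replicate 2). Relative to Cd3e alone, 6 genes in heart and 8 in liver at POD5 exceeded the reference, against 3 and 4 with the T cell list. The Cd3e mean in liver was 7.25 on controls and 7.99 at POD5, so that reference takes little from the liver differences. Of 290 counts of list genes under alternatives, 64 moved by over 1.5 times. The lowest count of genes called higher was 0 in every list and comparison but the interferon gamma list at POD5, where it was 1.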
